A study of Mus musculus with 14 samples.

Results

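Liver sinusoidal endothelial cells (LSECs) that were sorted from uninjured mouse livers are described here by their whole transcriptome. They were the 4 samples labelled healthy, chosen by that label alone, of the 14 samples in the series. All 14 samples were sorted LSECs of male Balb/c mice, which the labels give as 10 to 12 weeks old, while the study's methods give an older range. The healthy mice were left untreated and received no injection of the vehicle either. The other 10 samples came from livers 1 day (2 samples), 3 days (4 samples) and 7 days (4 samples) after 1 intraperitoneal dose of carbon tetrachloride (CCl4), a compound toxic to hepatocytes, of 0.5 µL per g of body weight in mineral oil. Cells had been sorted from perfused livers as positive for CD32, the low-affinity IgG receptors recognised by the antibody, and as negative for F4/80, ultraviolet autofluorescence and propidium iodide, and the methods add CD45. The labels do not say whether each sample was 1 animal, so that the spread between samples may be partly technical.

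LSECs line the capillaries of the liver. They carry open pores called fenestrae and lack a continuous basement membrane, and they clear waste macromolecules and small immune complexes from the blood through scavenger, mannose and Fc receptors. They also send signals to neighbouring cells, such as WNT ligands that set the zonation of hepatocytes, BMP ligands that control hepatocyte hepcidin, and coagulation factor VIII for the blood. Their identity is known to depend on the transcription factor Gata4 and on shear stress factors such as Klf2.

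Levels are given as CPM, the read count of a gene divided by the library size and put on a common scale, with library sizes corrected for composition by the TMM method. Values are the mean ± SD of the 4 healthy samples (n = 4), and the 4 values in a row are those of healthy replicates 1, 2, 3 and 4 in this order. CPM tells how many reads a gene took, which grows with its length, and levels of different genes were therefore compared as CPM per kilobase (kb) of the gene's exons. A total of 85458439 to 103912264 reads per healthy sample had been counted on genes, so that 3 counts, below which a gene was taken as not detected, corresponded to 0.0299 to 0.0352 CPM. This floor covers counting error only, because reads were amplified without molecular identifiers.

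Healthy replicate 4 stood apart from the other samples in many genes, and replicate 1 in a macrophage marker list. In replicate 4, 200 of the 9012 protein-coding genes with a mean of at least 10 CPM lay 10-fold or more above each of the other 3 samples, and these 200 genes held 5.28% of its counts against 0.133 to 0.230% in replicates 1 to 3 and 0.168 to 2.92% in the 10 injured samples. All 24 genes of a hepatocyte marker list were among them. In replicate 1, the 13 genes of a Kupffer cell list, the resident macrophages of the liver, were all below the other 3 samples, with a median ratio of 0.167 to their mean. The correlation of log2 CPM was 0.967 to 0.975 between replicates 1, 2 and 3 and 0.942 to 0.948 between each of them and replicate 4. Where replicate 4 decided a value named below, the value without it is given beside it if it was computed.

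Of 21905 nuclear protein-coding genes, 14688 were detected in all 4 healthy samples, and 11613 (53.0%) reached 1 CPM or more in every one of them. A total of 8113 genes reached 10 CPM, 1503 reached 100 CPM and 66 reached 1000 CPM in all 4, whereas 3659 genes remained under 3 counts in all 4. Nuclear protein-coding genes held 89.1 ± 1.13% of the counts, and mitochondrial genes held 3.35 ± 0.272%. The transcriptome was top-heavy, with 7.67 ± 0.588% of all counts in the 10 most abundant of these genes and 50.3 ± 1.12% in the 1000 most abundant. The samples were alike for most genes: the coefficient of variation (CV, the SD as a percent of the mean) over the 4 samples had a median of 15.3% among the 11613 expressed genes and was under 20% in 65.0% of them. It exceeded 100% in 267 genes (2.30%), and in 12 of the 11613 (0.103%) without replicate 4, where the median CV was 13.1%. The 10 genes of largest SD of log2 CPM with a mean of at least 10 CPM were all highest in replicate 4. These were Gm49388, Cyp2e1, Cyp2c29, Ugt1a1, Mup2, Slco1b2, Obp2a, Selenbp2, Mup9 and Mup7, most of which are hepatocyte genes for drug metabolism, bile acid uptake or urinary proteins.

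Selenop took more reads than any other gene. It encodes the secreted selenium carrier selenoprotein P and was measured at 29162, 25974, 28329.7 and 21921 CPM, a mean of 26347 ± 3245 CPM, with the lowest value in replicate 4. The gene overlaps Ccdc152, and since the use of strand in counting is not stated, some of these reads may belong to that gene. Fos, the immediate early transcription factor, came next by reads with 8610.0 ± 823 CPM, followed by Igfbp7, a secreted protein of the vascular wall that binds insulin-like growth factors, with 8064 ± 1673 CPM. Itm2b, a transmembrane protein, reached 6474 ± 1093 CPM, and the major histocompatibility class I light chain B2m reached 6052 ± 1293 CPM. Clec4g, a C-type lectin that marks LSECs, was the sixth gene by reads. The next places were taken by Apoe, an apolipoprotein (4434 ± 1049 CPM), by the phosphatase Dusp1, by polyubiquitin Ubb, by the endocytic protein Ehd3 and by the class I heavy chain H2-D1 (3663 ± 156 CPM), with Serinc3, Zfp36, Plpp3 and Tmsb4x below them.

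Per kb of exon the order changed. Selenop still led with 9271 ± 1142 CPM per kb, followed by B2m with 7037 ± 1503 CPM per kb and Igfbp7 with 6669.9 ± 1383 CPM per kb. The interferon-induced membrane proteins Ifitm2 (4415 ± 705 CPM per kb) and Ifitm3 (2789 ± 518 CPM per kb), whose sequences are similar enough to share reads, entered the leading genes, as did the ferritin light chain Ftl1, calmodulin gene Calm2 and Junb. Of the 14 pairs of neighbours in this order, only 4 kept their order in all 4 samples, namely Selenop above B2m, Igfbp7 above Ifitm2, Ifitm3 above Tmsb4x and Apoe above H2-D1. The other 10 pairs changed their order in at least 1 sample, which does not show that their levels were equal. For any pair, 4 samples are too few for an exact sign-flip test to reach 0.05. The plot of the leading genes shows how far the 4 samples of each gene overlapped with the gene below.

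**Figure D1:**
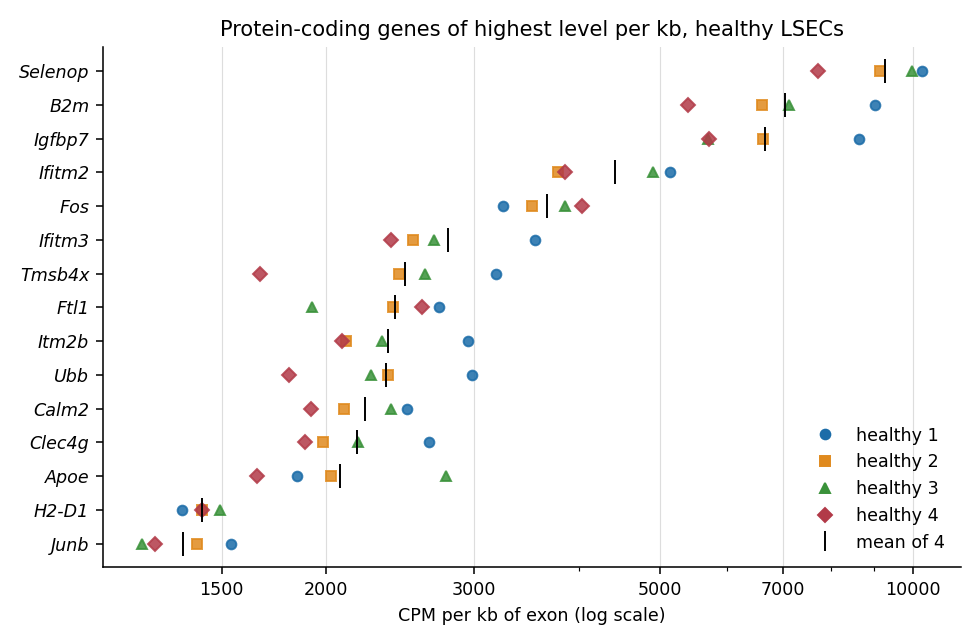
The 15 protein-coding genes of highest mean level in healthy LSECs, with the level in CPM per kb of exon on a log axis. Each symbol is 1 of the 4 healthy samples and the vertical tick is their mean. Selenop lies highest in the mean, and replicate 4 holds the lowest value of Selenop, B2m, Tmsb4x, Ubb and Apoe.

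The label LSEC was checked with a list of 16 genes. All 16 were above 100 CPM in each of the 4 samples, and their sum was 28969, 26093, 28976 and 24077 CPM, which is 2.66 ± 0.175% of all counts. Fcgr2b, the inhibitory IgG receptor that takes up immune complexes, is the antigen of the sort and its presence is therefore no finding. It was measured at 3397, 2606, 2912 and 2443 CPM. Stab2, the hyaluronan scavenger receptor, was at 1954, 1860.4, 1865 and 1577 CPM. Clec4g was at 6517, 4875, 5369.6 and 4639 CPM. Kdr, the main receptor for vascular endothelial growth factor A, was at 2088, 2231, 2436 and 2107 CPM. The CV of the 4 markers lay between 7.23% (Kdr) and 15.6% (Clec4g), and replicate 4 was the lowest for Stab2, Clec4g and Fcgr2b. Fcgr3, a related receptor that CD32 antibodies may also bind, was at 36.8 ± 12.1 CPM per kb against 490.5 ± 72.4 CPM per kb for Fcgr2b. Clec4g overlaps Gm16553, Stab2 overlaps Gm16268 and Fcgr2b overlaps Gm38204, so that reads of these pairs cannot be told apart without strand.

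Among the other LSEC markers, the mannose receptor Mrc1 had the smallest spread, with 1569, 1474, 1589 and 1553 CPM (CV 3.25%). Plpp3, which dephosphorylates bioactive lipids, was at 3491 ± 281 CPM, and Oit3, a gene known as an LSEC marker, was at 2239 ± 149 CPM. Dnase1l3, a secreted nuclease that degrades circulating chromatin, was at 1907 ± 359 CPM, and the orphan receptor Gpr182 was at 1735 ± 477 CPM. The hyaluronan receptor Lyve1 was at 363, 381, 534 and 271 CPM, highest in replicate 3. Per kb the list ran from Clec4g with 2173 ± 339 CPM per kb (3710.1 CPM per kb when divided by its longest transcript instead of all exons) down to Gata4 with 74.1 ± 9.40 CPM per kb and the netrin Ntn4 with 70.3 ± 7.00 CPM per kb.

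The promoters of the 4 markers that define the label are shown because these genes set the identity of the sample. Each line gives the 250 bases before the transcription start, 5′ to 3′ on the strand of the gene, from RefSeq on GRCm38.p6. All 4 genes lie on the minus strand: Stab2 at chr10:87007943-87008192, Clec4g at chr8:3720652-3720901, Kdr at chr5:75978456-75978705 and Fcgr2b at chr1:170976072-170976321. Capitals mark matches to AGGAAG or its reverse complement CTTCCT, letters of a core motif of ETS factors.
Stab2: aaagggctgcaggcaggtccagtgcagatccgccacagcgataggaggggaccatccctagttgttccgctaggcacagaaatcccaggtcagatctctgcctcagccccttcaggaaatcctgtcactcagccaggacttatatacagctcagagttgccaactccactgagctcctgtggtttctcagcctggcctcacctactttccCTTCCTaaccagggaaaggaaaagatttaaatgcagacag
Clec4g: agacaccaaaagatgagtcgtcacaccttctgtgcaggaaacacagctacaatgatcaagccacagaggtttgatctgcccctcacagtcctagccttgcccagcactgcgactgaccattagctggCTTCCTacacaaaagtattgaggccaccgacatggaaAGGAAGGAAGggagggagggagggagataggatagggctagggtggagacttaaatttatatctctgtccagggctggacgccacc
Kdr: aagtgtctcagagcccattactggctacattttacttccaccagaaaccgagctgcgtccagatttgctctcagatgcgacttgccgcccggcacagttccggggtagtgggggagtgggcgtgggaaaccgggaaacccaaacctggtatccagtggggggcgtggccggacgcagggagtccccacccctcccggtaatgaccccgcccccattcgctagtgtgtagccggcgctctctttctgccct
Fcgr2b: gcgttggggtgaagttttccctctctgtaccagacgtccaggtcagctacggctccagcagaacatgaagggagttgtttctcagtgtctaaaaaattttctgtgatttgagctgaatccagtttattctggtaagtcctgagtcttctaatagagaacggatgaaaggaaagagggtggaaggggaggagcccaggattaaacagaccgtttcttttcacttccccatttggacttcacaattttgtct
The Stab2 window held 1 match, 35 to 40 bases before the start, and the Clec4g window held 3, of which 2 overlapped each other at 77 to 86 bases before the start. The windows of Kdr and Fcgr2b held none, which says only that these letters are not in these windows. Of the 16 LSEC genes, 10 were matched in the promoter table, and 6 of these 10 held AGGAAG or CTTCCT in the 250 bases, against 29.2% of all 27018 gene promoters. AGATAA, known from binding sites of the Gata4 family, was found in 0 of the 10 against 10.2% of all, CACACCC (KLF factors) in 0 of the 10 against 6.87%, and TGCTGA (MAF factors) in 2 of the 10 against 15.9%, each searched on both strands. A match is a description of letters only, and other letters that these factors may bind were not searched.

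General and regional endothelial markers were then compared. All 10 pan-endothelial genes were above 100 CPM in every sample, and the list summed to 7050.4 ± 462 CPM. The receptor-type phosphatase Ptprb, which restrains the TIE2 receptor, was at 2747 ± 240.2 CPM, the TGF-β co-receptor Eng at 964 ± 206 CPM, the secreted Egfl7 at 899 ± 163 CPM, the adhesion molecule Pecam1 at 390.3 ± 50.6 CPM and VE-cadherin Cdh5 at 289 ± 47.3 CPM. Of 8 genes for arterial and portal endothelium, Ltbp4 (691 ± 79.1 CPM), the Notch ligand Dll4 (282 ± 34.7 CPM) and connexin Gja4 (202 ± 34.7 CPM) were abundant, whereas the arterial connexin Gja5 was at 4.71 ± 0.785 CPM and Bmx at 0.453 ± 0.287 CPM. Sema3g had 3, 0, 6 and 3 counts in the 4 samples and was thus near the floor. For central veins and the pericentral sinusoid, the WNT ligand Wnt2 was at 295, 162, 237 and 252 CPM. Rspo3, which amplifies WNT signals, was at 29.2, 29.4, 29.3 and 34.9 CPM, and Wnt9b was at 6.32, 5.74, 10.4 and 6.68 CPM. Wnt2 was thus above Rspo3, and Rspo3 above Wnt9b, per kb in all 4 samples. Von Willebrand factor Vwf, a gene of larger vessels, was at 8.30 ± 2.98 CPM. The lymphatic list of 5 genes summed to 16.7 ± 2.72 CPM, with Pdpn at 0.148 ± 0.113 CPM and Prox1 at 6.05 ± 1.98 CPM.

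**Figure D2:**
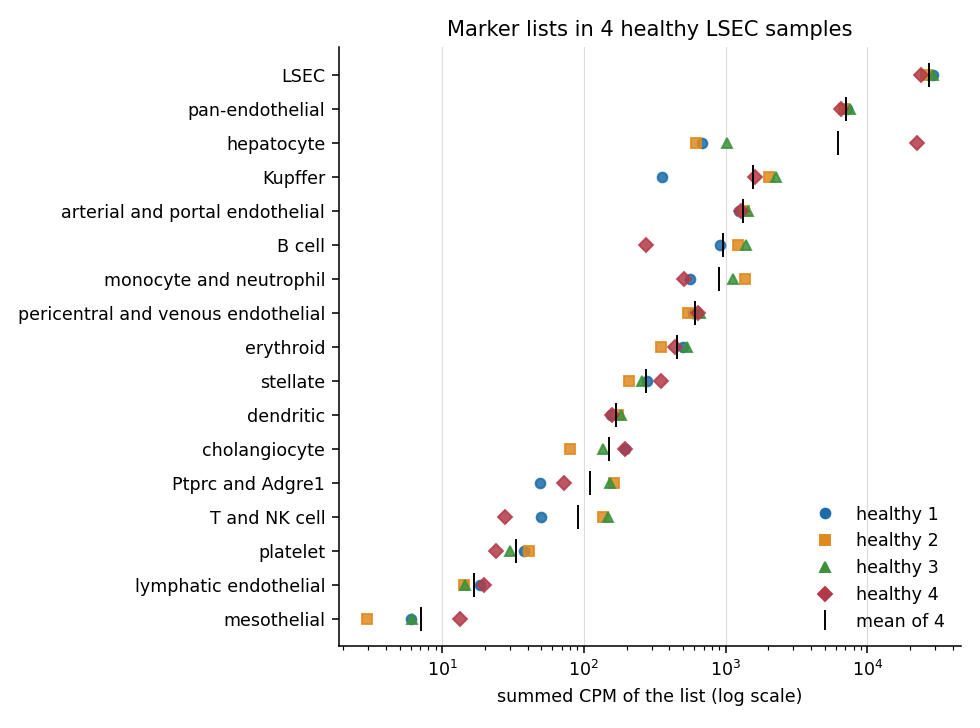
Summed CPM (log axis) of 17 marker lists in the 4 healthy samples, with 1 symbol per sample and a tick for the mean. The LSEC list lies highest in all 4 samples, the hepatocyte list is at 22448 CPM in replicate 4 against 622 to 1030 in the others, and the Kupffer list is lowest in replicate 1.

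Carry-over from other liver cells was measured with the marker lists, whose summed levels are plotted by sample. The lists differ in gene number and gene length, so that their sums rank reads and not numbers of cells. Hepatocyte genes had the highest mean of the non-endothelial lists, and most of it came from 1 sample. The 24 genes summed to 682, 622, 1030.0 and 22448 CPM, or 0.0619 to 2.27% of counts, and the mean of 6195 ± 10836 CPM fell to 778 CPM without replicate 4. Albumin (Alb) alone was at 95.6, 68.8, 124 and 2611 CPM, the major urinary protein Mup3 at 131, 95.6, 142 and 3417 CPM and Apoa2 at 48.9, 38.1, 83.0 and 1578 CPM. In replicate 4 the 24 genes were 18.6-fold (Trf) to 49.5-fold (Cps1) above the mean of the other samples, with a median of 30.8-fold. None of the 24 was under 3 counts in any healthy sample, and Mup reads may be shared between paralogs. The injured samples ranged from 562 to 14074 CPM for the same list.

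Kupffer cell genes came second among the non-endothelial lists by the mean, and first without replicate 4. Their 13 genes summed to 357, 2020.2, 2283 and 1606 CPM. Clec4f, a receptor found in Kupffer cells, was at 58.9, 492, 554 and 461 CPM and the complement gene C1qb at 67.2, 313, 350.2 and 223 CPM, both lowest in replicate 1. The antigens used to exclude cells were present at low levels, with Ptprc (CD45) at 39.0, 109.6, 94.7 and 36.9 CPM and Adgre1 (F4/80) at 10.2, 53.7, 58.9 and 35.2 CPM. In bulk samples a small number of such cells and a low level of RNA in many cells cannot be told apart.

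Blood cell genes were the next group. The 9 B cell genes summed to 917, 1225, 1387 and 276 CPM, led by the immunoglobulin constant regions Igkc (516 ± 300.0 CPM) and Ighm (257 ± 135 CPM), and all 9 were lowest in replicate 4, with a median ratio of 0.215 to the other samples. The 10 T and NK cell genes summed to 49.9, 135, 149 and 27.6 CPM, with Gzma at 20.4 ± 14.3 CPM. The 11 monocyte and neutrophil genes summed to 556, 1376, 1125 and 509.8 CPM, most of it lysozyme Lyz2 (760.2 ± 371 CPM), while the neutrophil gene Ly6g was at 0.589, 0.223, 0.364 and 0 CPM. Haemoglobin and other erythroid genes summed to 456 ± 81.6 CPM and platelet genes to 33.1 ± 7.67 CPM, led by Pf4 with 28.2 ± 7.05 CPM. The dendritic cell list summed to 167 ± 12.8 CPM, of which Zbtb46, a gene that endothelial cells are known to express too, made up 132 ± 12.2 CPM.

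Markers of mesenchymal and biliary cells were low. The 15 stellate cell genes summed to 277, 207, 257 and 350.1 CPM, and decorin Dcn held 141 ± 43.0 CPM of it. The retinol acyltransferase Lrat, a defining gene of stellate cells, was at 3.46, 1.53, 2.83 and 9.28 CPM, Pdgfrb at 1.97 ± 0.381 CPM and Col1a1 at 2.57 ± 1.23 CPM, and Ngfr had no read in replicates 1 and 2. The 6 cholangiocyte genes summed to 151 ± 54.9 CPM, nearly all of it Spp1 (137 ± 49.7 CPM), with Krt19 at 3.13 ± 1.49 CPM and Epcam at 5.15 ± 1.30 CPM. The 3 mesothelial genes summed to 7.10 ± 4.44 CPM. The lists also differed in how steady they were, since the median CV of expressed members was 12.9% for the LSEC list, 12.5% for the pan-endothelial list, 55.9% for the Kupffer list, 67.8% for T and NK cells and 176% for hepatocytes. The hepatocyte value rested on replicate 4, where all 24 genes lay above the other samples, and it was not computed without this replicate. All 13 Kupffer genes were lowest in replicate 1.

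Receptors define how LSECs meet the blood. Of 205 receptor genes examined, 165 were at 1 CPM or more and 62 at 100 CPM or more in all 4 samples, and together the 205 held 4.42 ± 0.167% of counts. Endocytic receptors led. Clec4g (2173 ± 339 CPM per kb) was followed by Oit3 (803 ± 53.6 CPM per kb), by Fcgrt, the neonatal Fc receptor that recycles IgG and albumin (543 ± 45.2 CPM per kb), by Fcgr2b (490.5 ± 72.4 CPM per kb), by Mrc1 (243 ± 7.90 CPM per kb) and by Stab2 (207 ± 18.7 CPM per kb), and each of these neighbours kept its order in all 4 samples. Stab1, the second stabilin, was at 92.1 ± 11.7 CPM per kb. The scavenger receptors Cd36 (190.3 ± 37.5 CPM per kb) and Msr1 (143 ± 14.1 CPM per kb), which bind modified lipoproteins, were also expressed in all 4 samples.

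Growth factor receptors were led by Kdr with 245 ± 17.7 CPM per kb. Nrp1, the VEGF co-receptor, followed with 161 ± 13.0 CPM per kb, then the angiopoietin receptor Tek with 103 ± 4.41 CPM per kb and the VEGF-C receptor Flt4 with 76.7 ± 12.3 CPM per kb, each above the next in all 4 samples. Flt1, the decoy-like VEGF receptor, was at 38.3 ± 1.32 CPM per kb, so that Kdr exceeded it in every sample. In the TGF-β and BMP group, Eng (238 ± 50.8 CPM per kb) lay far above the signalling receptors Tgfbr2 (28.7 ± 3.63 CPM per kb) and Acvrl1 (16.3 ± 2.44 CPM per kb). Among receptors for guidance and Notch signals, Plxnc1 (74.1 ± 6.98 CPM per kb) and Robo4 (67.0 ± 5.55 CPM per kb) led, and Notch1 was at 15.3 ± 2.38 CPM per kb.

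G protein-coupled receptors were led by Gpr182 (439 ± 121 CPM per kb) and the atypical chemokine receptor Ackr1 (325 ± 42.5 CPM per kb), which did not keep their order in all 4 samples. Adgrl4, an adhesion receptor of endothelium, followed with 214 ± 11.2 CPM per kb, and the sphingosine 1-phosphate receptor S1pr1 was at 68.6 ± 6.60 CPM per kb. For cytokines, the TNF receptor Tnfrsf1a was highest with 147 ± 22.0 CPM per kb, and Ltbr, Ifnar2 and Fas followed. Among innate sensors the endotoxin co-receptors Ly96 (104 ± 19.2 CPM per kb) and Cd14 (69.6 ± 21.5 CPM per kb) led, while Tlr2 was at 13.9 ± 1.69 CPM per kb. Their signalling partner Tlr4 was at 22.4, 2.87, 2.53 and 21.0 CPM, so that the lower of replicates 1 and 4 lay 7.32-fold above the higher of replicates 2 and 3. Adhesion molecules were led by Esam (310.3 ± 20.1 CPM per kb), Icam2 (179 ± 17.5 CPM per kb) and the integrin chain Itgb1 (129 ± 4.38 CPM per kb), and Madcam1, an addressin of gut vessels, was the 1 receptor under 3 counts in all 4 samples.

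**Figure D3:**
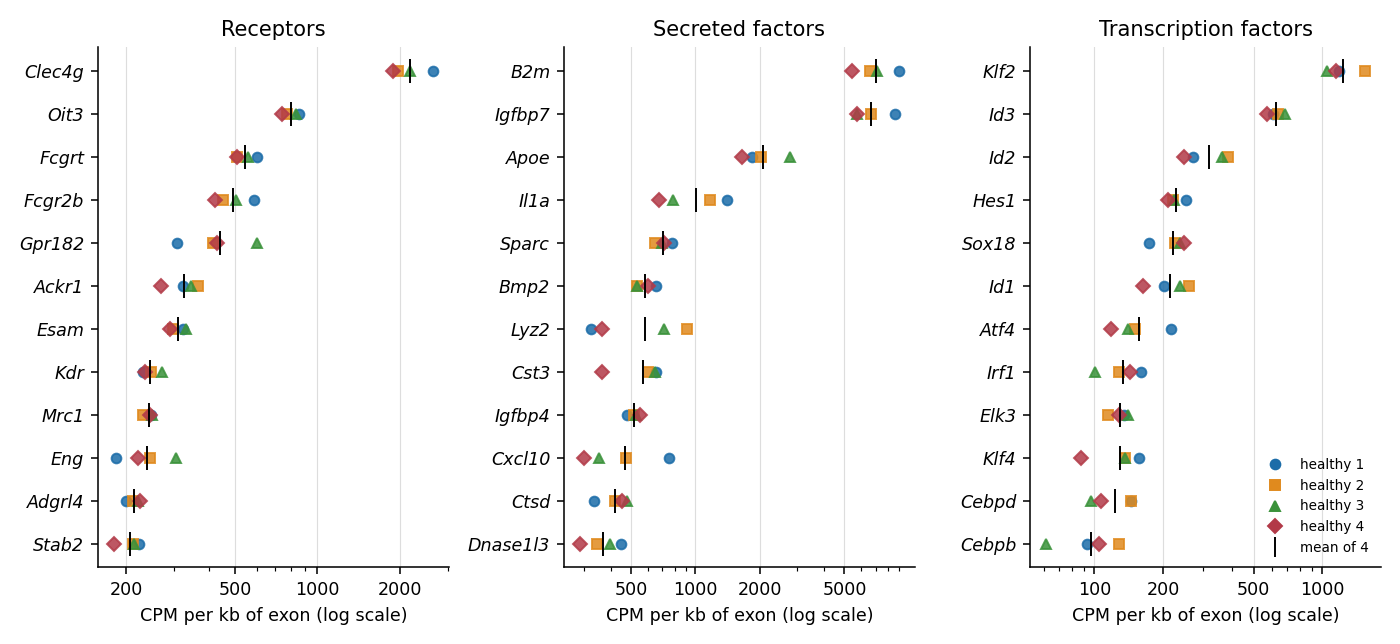
The 12 genes of highest mean level in healthy LSECs from each of the receptor, secreted factor and transcription factor lists, in CPM per kb of exon on log axes. Each symbol is 1 of the 4 samples and the tick is the mean. Clec4g, B2m and Klf2 are the highest of their lists in the mean, Selenop, Fos and Junb are in none of the 3 lists and are not drawn, and Lyz2, Il1a and Cxcl10 show a wide spread between samples.

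Secreted factors made up 5.29 ± 0.253% of counts over 182 genes, of which 149 were at 1 CPM or more and 51 at 100 CPM or more in all 4 samples. The list does not hold Selenop, which is secreted too and was higher per kb than each of its genes in the mean. B2m, which is also bound to the cell surface, Igfbp7 and Apoe led the listed genes per kb. Among growth factors Bmp2 was highest, with 2321, 1885, 1883 and 2134 CPM and 578 ± 59.7 CPM per kb. Egfl7 followed with 251 ± 45.4 CPM per kb, then Gas6, the ligand of the TAM receptors for cell debris (150.0 ± 6.93 CPM per kb), and Wnt2 (105 ± 24.6 CPM per kb), each pair in the same order in all 4 samples. Bmp6, the second hepcidin-inducing BMP, was at 44.6 ± 4.31 CPM per kb, and the neurotrophin Ntf3 was at 51.1, 39.8, 47.7 and 61.7 CPM.

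Cytokines and chemokines varied more between samples than growth factors, with a median CV of 36.1% against 18.1% for growth factors. Interleukin Il1a was at 2769, 2320.3, 1543 and 1333 CPM and the interferon-induced chemokine Cxcl10 at 1693, 1066, 798 and 675 CPM, both highest in replicate 1 and lowest in replicate 4. Cxcl16 was at 344, 319, 314 and 314 CPM. Il1b was at 140.4, 421, 386 and 209 CPM, with the lowest value in replicate 1, in which the Kupffer list was lowest too, and the part of Kupffer cells in the Il1b level was not tested.

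The haemostatic group held both steady and variable genes. F8, coagulation factor VIII, was its steadiest member, at 1355, 1320.2, 1349 and 1332 CPM with a CV of 1.19%. Pros1, an anticoagulant cofactor, was at 508 ± 19.7 CPM and Mmrn2 at 395 ± 48.3 CPM. By contrast F10 (1.94, 3.22, 4.08 and 74.0 CPM) and Proc (2.60, 1.93, 3.72 and 74.5 CPM), coagulation factors known from hepatocytes, were high in replicate 4 only, and their means fell to 3.08 and 2.75 CPM without it. Among matrix genes Igfbp7 was followed by Sparc (706 ± 53.8 CPM per kb) and Igfbp4 (518 ± 31.5 CPM per kb) in all 4 samples. The basement membrane collagen Col4a1 was at 57.3 ± 8.18 CPM per kb, with reads that could not be told apart from those of the overlapping Col4a2, and the transmembrane collagen Col13a1 was at 65.9 ± 8.64 CPM per kb. The cathepsins Ctsb (2090.0 ± 212 CPM), Ctsl (1993 ± 145 CPM) and Ctsd (992 ± 145 CPM), lysosomal proteases, were abundant in all 4 samples.

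Transcription factors held 1.57 ± 0.0884% of counts over 115 genes, of which 96 were at 1 CPM or more and 36 at 100 CPM or more in all 4 samples, and 0 were under 3 counts in all 4. The list leaves out the immediate early factors Fos (3661 ± 349.7 CPM per kb) and Junb (1348 ± 152 CPM per kb), which are counted with the early response genes and were higher in the mean than any listed factor. Klf2, the shear stress factor of endothelium, led the listed factors with 2196, 2847, 1929 and 2123 CPM and 1231 ± 216 CPM per kb. The BMP target Id3 (627 ± 48.7 CPM per kb) and Id2 (317 ± 68.5 CPM per kb) followed in all 4 samples, then the Notch target Hes1 (227 ± 17.2 CPM per kb) and Sox18 (221 ± 33.3 CPM per kb), which did not keep their order. Id1, another BMP target, was at 215 ± 42.3 CPM per kb, and the endothelial factors Elk3 and Klf4 were at 129.6 ± 10.9 CPM per kb and 129 ± 29.4 CPM per kb. Gata4, whose loss is known to turn LSECs into continuous endothelium, was at 74.1 ± 9.40 CPM per kb and Maf at 83.8 ± 10.9 CPM per kb. Among stress and inflammatory factors Atf4 (157 ± 42.9 CPM per kb) and Irf1 (133 ± 24.9 CPM per kb) led. Nuclear receptors were lower, with the glucocorticoid receptor Nr3c1 at 21.6 ± 4.88 CPM per kb. Of 20 factors of other lineages 7 reached 1 CPM in all 4 samples, led by the macrophage factor Spi1 with 16.0, 48.1, 48.3 and 23.4 CPM.

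Most gene families were carried by 1 member. Over 59 families with 689 protein-coding genes, 341 genes were at 1 CPM or more in all 4 samples, and in 45 families the leading member held more than 50% of the family's summed CPM per kb. In 15 families it held more than 90%, and 3 families had no member at 1 CPM in all 4 samples. These 3, HNF, PAX and SLIT, are counted among the 45 as well, and Hnf4a led the HNF genes in 1 sample only. In the receptor families Robo4 held 95.5 to 97.1% of its family over the 4 samples, S1pr1 held 95.1 to 97.0%, Ackr1 held 93.3 to 95.2%, Fcgr2b held 87.5 to 95.6% and the venous receptor Ephb4 held 87.5 to 90.6%. The C-type lectins were led by Clec4g with 75.9 to 86.3%, although 17 of 30 members were expressed. These 17 include Clec4f of the Kupffer list and Clec9a of the dendritic cell list. The part of other cells in this count and in the family shares was not tested. Kdr held 67.0 to 69.7% of the 3 VEGF receptors.

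The secreted families showed the same form. Wnt2 held 96.6 to 98.0% of 19 WNT genes, of which 3 were at 1 CPM or more in all 4 samples. Bmp2 held 91.9 to 93.2% of 9 BMP genes, Igfbp7 held 90.7 to 94.7% of 7 IGFBP genes, Ntn4 held 99.4 to 99.7% of 3 netrins and Angpt2 held 97.1 to 99.6% of 3 angiopoietins. The FGF family had 2 of 22 genes at 1 CPM or more, and the 3 SLIT genes, ligands of ROBO receptors, had 0. Igf1 led the IGF family with 9.54, 28.9, 36.5 and 139 CPM, highest in replicate 4, in which the hepatocyte list was highest too, and the part of hepatocyte RNA in it was not tested.

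Among the transcription factors Gata4 held 88.1 to 91.6% of 6 GATA genes, Hes1 held 87.8 to 93.3% of 9 HES and HEY genes, Tbx2 held 88.6 to 94.5% of 13 TBX genes and Klf2 held 74.1 to 80.2% of 26 KLF and SP genes. Of 39 HOX genes 11 were at 1 CPM or more, and Hoxa5 held 48.7 to 66.6%. Families of other lineages were near the floor, with 0 of 4 HNF genes and 0 of 9 PAX genes at 1 CPM or more in all 4 samples. The ETS family had no such leader, as 19 of 26 genes were expressed and Elk3 held 26.8 to 32.8%. The FOX family, led by Foxo1 with 26.8 to 29.6%, was spread in the same way.

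**Figure D4:**
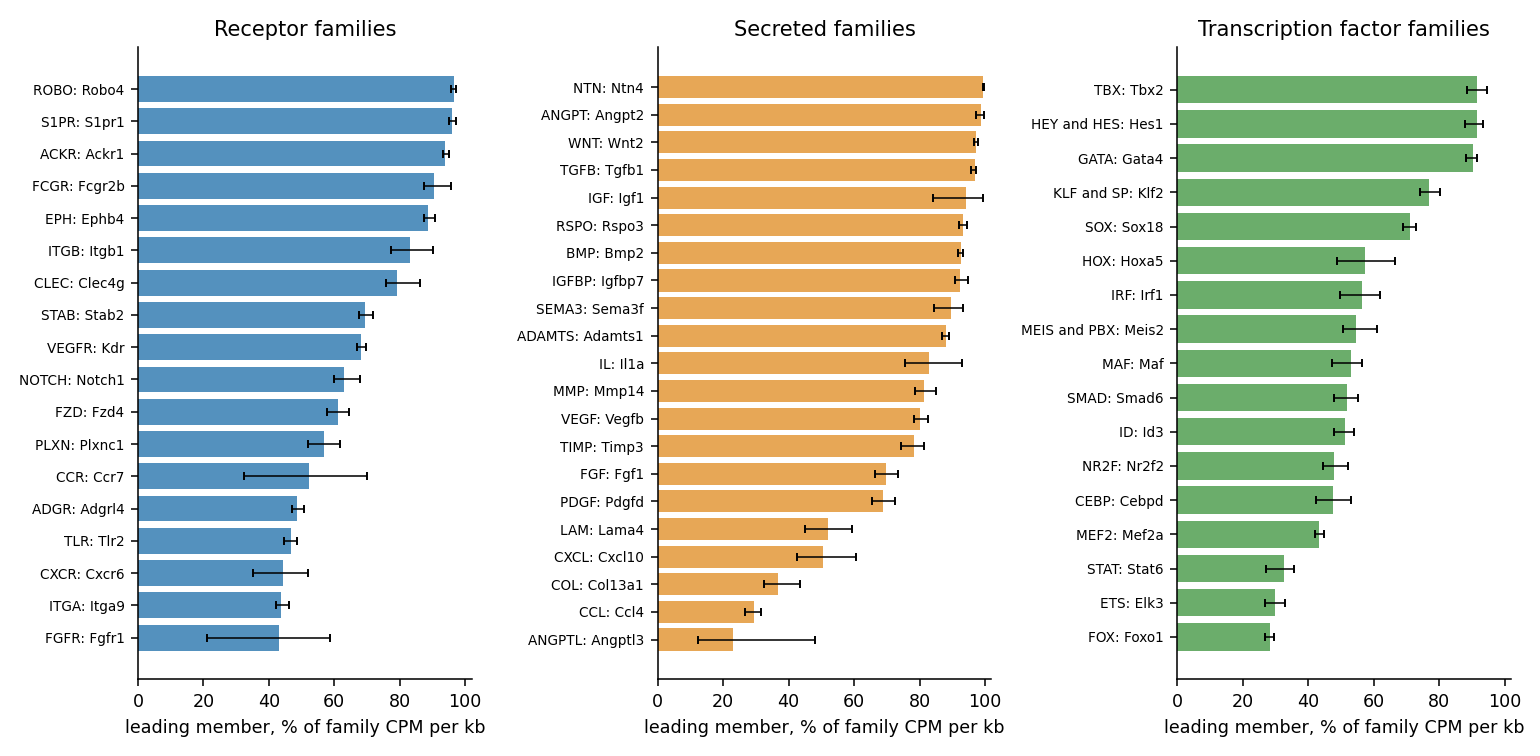
Share of the leading member in the summed CPM per kb of its gene family in healthy LSECs. Bars give the mean of the 4 samples from 0 and lines reach from the lowest to the highest sample, for families with at least 1 member at 1 CPM or more in all 4. Ntn4, Wnt2, Robo4 and S1pr1 hold over 90%, while Foxo1 holds 28.3% of the FOX family and Elk3 29.8% of the ETS family.

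Early response genes were high in these freshly sorted cells. A list of 19 genes that are known to rise within minutes of tissue dissociation, among other stimuli, summed to 29175, 32578, 29882 and 31274 CPM, 3.03 ± 0.209% of counts, more than the LSEC list in all 4 samples. Fos, Dusp1 (4069 ± 388 CPM), Zfp36 (3539 ± 90.4 CPM), Junb (3101 ± 349 CPM) and Jun (1853 ± 261 CPM) held most of its reads. The heat shock genes Hspa1a (70.3, 641, 211 and 169 CPM) and Hspa1b (59.3, 607, 189 and 144 CPM), near-identical copies that may share reads, differed most between samples. Genes linked to capillarization, the loss of fenestrae, were also present in healthy cells, with Plpp1 at 1639 ± 275 CPM, the fatty acid carrier Fabp4 at 1068 ± 308 CPM and Plvap, a protein of fenestral diaphragms, at 668 ± 61.0 CPM. Vwa1 was at 0.526 ± 0.181 CPM and Rbp7 at 0.0591 ± 0.0734 CPM.

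Healthy LSECs were compared with the injured samples to see where their baseline differs, although CCl4 and its vehicle cannot be told apart because the healthy mice received neither. The contrast set the healthy mean against the unweighted mean of days 1, 3 and 7 in edgeR's quasi-likelihood test over all 14 samples, with Benjamini-Hochberg adjustment over 26626 genes and a threshold of 0.05. It called 1331 genes (5%), of which 656 (2.46%) were higher and 675 (2.54%) lower in healthy LSECs. Of all tested genes, called or not, all 4 healthy samples lay above all 10 injured samples in 557 (2.09%) and below them in 436 (1.64%). Without 1 library, the number of calls was 442 without day 1 replicate 1, 553, 707, 663 and 688 without healthy replicates 1 to 4, and 2437 without day 3 replicate 4. The make-up of the RNA moved with the groups. Mitochondrial genes held 3.04 to 3.65% of counts in healthy and 3.06 to 9.87% in injured samples, ribosomal RNA genes held 1.90 to 4.23% against 2.95 to 9.35%, and nuclear protein-coding genes held 88.0 to 90.1% against 71.5 to 88.6%. Their part in the differences was not tested. All samples were sorted as positive for CD32, and the Fcgr2b protein is the antigen of that sort. The study reports a temporary loss of this protein in stained livers after injury. Injured LSECs that had lost it may thus be missing from the sorted samples. The study also left out samples of the earliest time point for low RNA quality. What the sort and this exclusion did to the differences was not tested.

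Of the 16 LSEC genes, 7 were higher in healthy LSECs, 1 was lower and 8 were not called, with a median log2 difference of 0.68 against -0.01 over all tested genes. Over all tested genes, 2.46% were higher and 2.54% lower. Stab2, Clec4g, Kdr, Fcgr2b, Oit3, Gpr182, Mrc1, Plpp3, Ntn4 and Maf are also in the study's healthy LSEC signature. The study took genes into it for being higher in healthy LSECs of these same data, and left out Lyve1 for rising after injury. The part of these genes in the count, the median and the list's sum is therefore no independent support. Mrc1 was higher by 1.20 ± 0.17 (log2 difference ± SE, edgeR adjusted p = 0.00192), with 458 to 1162 CPM in the 10 injured samples (median 711), all below the healthy ones. Dnase1l3 was higher by 1.10 ± 0.18 (edgeR adjusted p = 0.00465). Kdr was higher by 1.00 ± 0.21 (edgeR adjusted p = 0.0181), Clec4g by 0.94 ± 0.21 (edgeR adjusted p = 0.0215) and Fcgr2b, the sorted antigen, by 0.74 ± 0.17 (edgeR adjusted p = 0.0225), and Plpp3 and Oit3 were called as well. Healthy samples lay above all injured ones for 5 of the 16, namely Clec4g, Kdr, Oit3, Mrc1 and Plpp3, against 2.09% of all tested genes. Lyve1 was the 1 gene of the list that was lower, with a log2 difference of -1.62 ± 0.20 (edgeR adjusted p = 0.00111), with 455 to 3397 CPM in injured samples. Stab2 differed by 0.24 ± 0.21 (edgeR adjusted p = 0.602) and Gata4 by 0.82 ± 0.28 (edgeR adjusted p = 0.118), and neither was called, although Gata4 was without day 3 replicate 4 (edgeR adjusted p = 0.00970). Leaving out 1 library brought the 7 calls to 2 (without day 1 replicate 1, healthy replicate 1 or healthy replicate 3), 3 (without healthy replicate 2) or 4 (without healthy replicate 4). Mrc1, Dnase1l3 and Lyve1 were called in each of these fits, whereas Plpp3 and Oit3 were called in none of them, and Plpp3 was not called without day 1 replicate 2 or day 7 replicate 3 either. Kdr lost its call without day 1 replicate 1 or any 1 healthy replicate (edgeR adjusted p = 0.0504 to 0.0988), Clec4g without day 1 replicate 1 or healthy replicate 1 or 3 (edgeR adjusted p = 0.0607 to 0.0887), and Fcgr2b without either day 1 replicate or healthy replicate 1, 2 or 3 (edgeR adjusted p = 0.0502 to 0.0963).

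Receptors and ligands that were higher in healthy LSECs included Ackr4, an atypical receptor for CCL19 and CCL21, at 39.9, 71.5, 73.8 and 55.1 CPM against 1.20 to 38.3 CPM in injured samples (2.79 ± 0.23, edgeR adjusted p = 7.79e-05). Gas6 was higher by 2.09 ± 0.10 (edgeR adjusted p = 5.01e-07), with 52.6 to 195 CPM in injured samples, so that the groups did not overlap. Ntf3 was higher by 2.43 ± 0.31 (edgeR adjusted p = 0.00111). Nrp1 was higher by 1.38 ± 0.24 (edgeR adjusted p = 0.00602), Tek by 0.99 ± 0.16 (edgeR adjusted p = 0.00465), F8 by 0.98 ± 0.16 (edgeR adjusted p = 0.00512), Cxcl16 by 0.91 ± 0.14 (edgeR adjusted p = 0.00329) and Hes1 by 1.21 ± 0.17 (edgeR adjusted p = 0.00190). Of these, Nrp1 is in the study's healthy LSEC signature as well. Selenop was higher by 1.45 ± 0.21 (edgeR adjusted p = 0.00221), with 5151 to 18347 CPM in injured samples, and Klf2 by 1.47 ± 0.34 (edgeR adjusted p = 0.0251). Klf2 lost its call without any 1 healthy replicate or either day 1 replicate (edgeR adjusted p = 0.0534 to 0.0943), while the other 9 genes kept theirs without any 1 library. Over the whole classes, 17 of 204 receptors were higher and 28 lower, 17 of 181 secreted factors were higher and 30 lower, and 8 of 115 transcription factors were higher and 6 lower. Over all tested genes, 2.46% were higher and 2.54% lower. Without day 1 replicate 1 the class counts were 6 and 14, 8 and 17, and 4 and 1. In that fit 199 of all 29565 tested genes were higher and 243 lower. Without day 3 replicate 4 the class counts were 27 and 34, 28 and 40, and 16 and 8. There, 1330 of all 26443 tested genes were higher and 1107 lower. Without 1 healthy replicate, 8 to 11 receptors were higher and 15 to 19 lower, 9 to 12 secreted factors were higher and 16 to 22 lower, and 4 to 6 transcription factors were higher and 1 to 3 lower. Of all tested genes, these fits called 272 to 355 higher and 281 to 353 lower. The transcription factors were 5 higher without day 1 replicate 2 and 3 lower without day 7 replicate 4. The rule for the largest differences, which picked Ackr4, Gas6 and Ntf3 too, itself asked for no overlap with injured samples. By this rule Samd12, Pcp4l1, Gpr155, Plxdc1, Ces2g, Ces2e and Mup21 were also higher. Mup21, a urinary protein gene, rested on healthy replicate 4, with 6.11, 5.24, 7.31 and 297 CPM. Its edgeR adjusted p was 0.274 without that replicate, 0.160 without day 1 replicate 1 and 0.102 without day 1 replicate 2.

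Part of the early response list was higher in healthy LSECs too, where 2.46% of all tested genes were higher and 2.54% lower. Of the 19 genes 7 were higher and 0 lower, among them Fos by 0.79 ± 0.16 (edgeR adjusted p = 0.0146), Dusp1 by 0.95 ± 0.15 (edgeR adjusted p = 0.00323) and Atf3 by 1.15 ± 0.21 (edgeR adjusted p = 0.00736). The count was 2 without day 1 replicate 1 or healthy replicate 3 or 4, 3 without healthy replicate 1 or 2 or day 7 replicate 2, and 4 without day 1 replicate 2, day 3 replicate 2 or day 7 replicate 3. Fos lost its call without day 1 replicate 1 or healthy replicate 3 or 4 (edgeR adjusted p = 0.0509 to 0.0860), while Dusp1 and Atf3 kept theirs without any 1 library. The list's sum did not overlap between healthy (29175 to 32578 CPM) and injured samples (16602 to 24584 CPM).

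Part of the stellate and myeloid markers was lower in healthy LSECs, where 2.54% of all tested genes were lower and 2.46% higher. Of the 15 stellate genes 9 were lower and 0 higher, with Hgf at -2.16 ± 0.30 (edgeR adjusted p = 0.00189), the actin Acta2 at -2.28 ± 0.51 (edgeR adjusted p = 0.0219) and Col1a1 at -4.22 ± 1.03 (edgeR adjusted p = 0.0308), and the count was 1 or 2 without any 1 healthy replicate and 1 without day 1 replicate 1. It was 4 without day 1 replicate 2 or day 7 replicate 4, and 5 without day 3 replicate 1 or 2. Hgf kept its call in all of these fits. Acta2 lost it without day 1 replicate 1 or healthy replicate 1, 2 or 4 (edgeR adjusted p = 0.0668 to 0.0835), and Col1a1 without day 1 replicate 1 or any 1 healthy replicate (edgeR adjusted p = 0.0686 to 0.101). Of the 11 monocyte and neutrophil genes 4 were lower, among them Lyz2 with 1266 to 9304 CPM in injured samples. This count was 0 without day 1 replicate 1 or healthy replicate 1, 3 or 4, 2 without day 1 replicate 2 and 9 without day 3 replicate 4. The genes lowest against injured samples by the rule were Gpnmb, Ctsj, Vcan, Chil3, Tubb3, Lcn2, Timp1, Map3k6, Dpep2 and Gda, with Gpnmb, a glycoprotein of activated macrophages, at 0.0299, 1.74, 0.874 and 0.824 CPM in healthy against 5.31 to 1095 CPM in injured samples. Chil3 lost its call without day 1 replicate 1 or healthy replicate 1, 2 or 3 (edgeR adjusted p = 0.0533 to 0.0810). The tissue inhibitor Timp1 was at 2.93, 2.17, 1.47 and 1.41 against 11.6 to 111 CPM. Of the 24 hepatocyte genes 2 were higher, Mup3 and Mup20, both highest in replicate 4. Without it neither was called (edgeR adjusted p = 0.608 and 0.418) and 1 gene, haptoglobin (Hp), was lower, by -4.14 (edgeR adjusted p = 0.0172). The list had 0 calls without either day 1 replicate. Whether these differences came from the LSECs or from other cells in the sort was not tested. The plot of 4 lists by group shows that healthy samples lie above all injured samples for the LSEC and early response lists and below nearly all of them for the other lists.

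**Figure D5:**
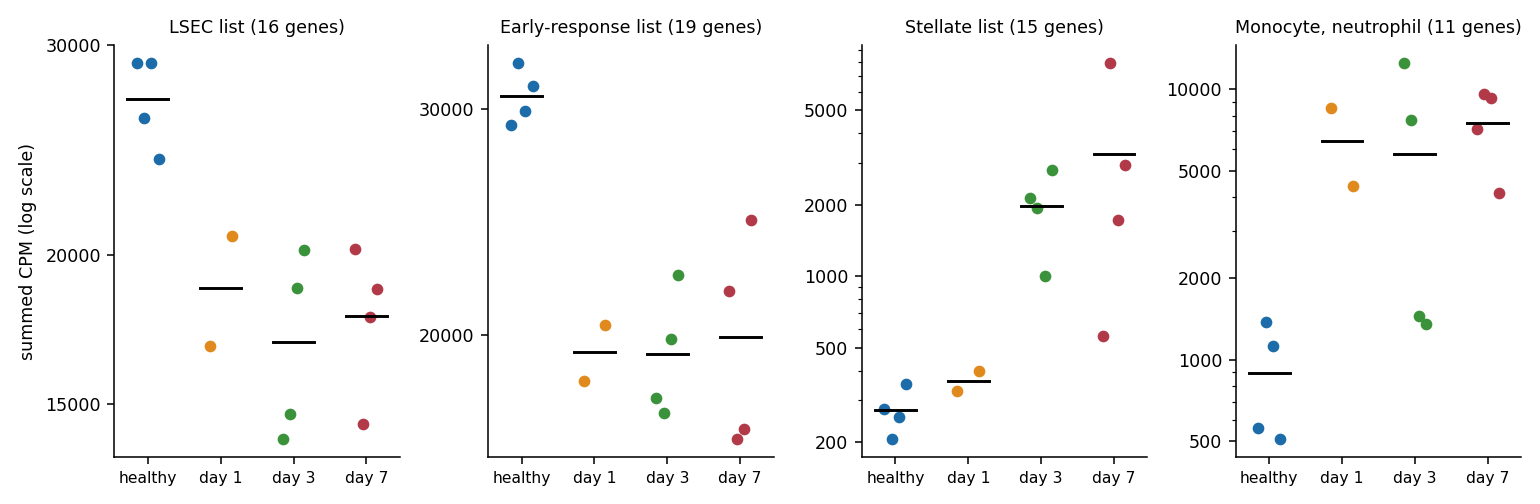
Summed CPM (log axes) of the LSEC, early response, stellate and monocyte and neutrophil lists in healthy samples (n = 4) and 1 day (n = 2), 3 days (n = 4) and 7 days (n = 4) after CCl4. Points are samples and lines are group means. The LSEC list is at 24077 to 28976 CPM in healthy samples against 14022 to 20744 in injured samples, and the stellate list is at 207 to 350 against 328 to 7887. Part of the LSEC list is in the study's signature of genes higher in healthy LSECs of these data.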

How the data were processed

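RNA of sorted LSECs (4 healthy samples and 10 after CCl4) was amplified with a SMART-Seq v4 kit and sequenced by the authors. The deposited table holds raw read counts per gene for 54524 genes, made by the authors with STAR and StringTie per the labels. Versions, the annotation release, the use of strand and the step from StringTie to counts are not given in the sources used here. Gene types, exon lengths and overlaps were taken from GENCODE vM21, which matched 54495 identifiers.

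Counts were scaled by TMM to CPM, with totals of 85458439 to 103912264 per healthy sample. A gene was called expressed at 1 CPM and not detected under 3 counts. The contrast of healthy and injured LSECs over all 14 samples used the quasi-likelihood F-test of edgeR 4.0.16 in R 4.3.3 after filterByExpr (minimum count 10, minimum total count 15), with Benjamini-Hochberg adjustment at 0.05, and the fit was tested on simulated data. DESeq2 1.42.0 and limma 3.58.1 were alternatives. The p-values measure only the spread between these samples. Promoter letters were searched in RefSeq sequences on GRCm38.p6. The members and gene lists were chosen with earlier results of these data known.

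Genes named in the text were the 15 highest by CPM and by CPM per kb, the leading members of each list, the LSEC and endothelial markers, the carry-over markers, the 10 most variable genes, and the 10 called genes with the largest difference in each direction that did not overlap between healthy and injured samples. Other members of the lists are named where their class is described.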

Additional observations from a re-analysis of the deposited data

Results flagged for a closer look

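Of 119 values tested over the 4 healthy samples, 19 had 1 sample so far from the others that the gap exceeded the 95% limit of Dixon's ratio, which chance alone passes in about 1 in 20 groups. Replicate 4 was the highest for the summed hepatocyte list with 22448 CPM, and for Alb (2611 CPM), Apoa2 (1578 CPM), F10 (74.0 CPM) and Proc (74.5 CPM), which hepatocytes are known to express. The same sample was far above the others in Gm49388 (59.3 CPM), Cyp2e1 (174 CPM), Cyp2c29 (155 CPM), Ugt1a1 (71.9 CPM), Mup2 (384 CPM), Slco1b2 (77.2 CPM), Obp2a (49.5 CPM), Selenbp2 (571 CPM), Mup9 (254 CPM) and Mup7 (445 CPM). These 10 had been selected for their variability. Gm49388 had no read in the other 3 samples, and it overlaps Hsd3b7 and Setd1a.

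Rspo3 was also highest in replicate 4, with 34.9 CPM against 29.2 to 29.4 CPM, and Flt1 was lowest there, with 490.0 CPM against 525 to 526 CPM. Col1a1 was highest in replicate 3 with 4.41 CPM, and Cxcl16 was highest in replicate 1 with 344 CPM against 314 to 319 CPM. In Rspo3, Flt1 and Cxcl16 the other 3 samples lay close together, and the distance of the far sample was small in CPM.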

How the results depend on the processing

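With RLE size factors or library size only, the list sums in healthy LSECs changed by -2.12 to 1.78%. The hepatocyte sum ranged from 778 to 8053 CPM when 1 healthy sample was left out. Dividing by the longest transcript in place of all exons moved the level by over 1.5 times in 12 named genes, among them Clec4g (3710.1 CPM per kb), Sparc (1164), Esam (477) and Flt1 (74.9). The number of genes called between healthy and injured LSECs (1331) moved more. It was 395 at an adjusted p of 0.01, 3007 with DESeq2, 5425 with limma-voom, 547 with the 10 injured samples as 1 group and, leaving out 1 library, 442 to 2437. The cause was not tested. With RLE size factors it was 1318, with library size only 1127, with at least 10 counts in every sample 1598 and without a filter 1162, of which 724 were higher and 438 lower. Of 44 named genes that were followed through the alternatives, 41 were called. Of these, 18 remained called under all alternatives and 30 in all fits without 1 library, and 0 changed direction. The set leaves out other genes named as called, among them Plpp3, Oit3, Mup3 and Mup20, which lost their calls without healthy replicate 4.

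With the replicate block 870 genes were called. Deviations from the group means correlated at -0.232 to 0.0962 between same-numbered samples of different groups and at -0.256 to 0.236 between the other pairs. Deviations from means of 2 or 4 samples depend on each other. These values therefore cannot decide whether same-numbered samples shared a batch. The block left 6 of 7 LSEC calls and 1 of 9 stellate calls. The 10 injured samples as 1 group left 4 LSEC, 2 early response and 2 stellate calls, 2 monocyte and neutrophil calls as did the block, and 0 hepatocyte calls, and library size only left 5 LSEC and 3 early response calls. DESeq2 and limma-voom each called 10 monocyte and neutrophil genes lower. The values without 1 library for the receptor, secreted, transcription factor and hepatocyte calls, and for the CV, were chosen after seeing the data.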

Other observations

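Some genes separated the 4 healthy samples into pairs with a gap of 3-fold or more. They were chosen after their values were seen, among 9012 protein-coding genes with a mean of at least 10 CPM. Snrk, a kinase related to AMPK, was at 114 and 145 CPM in replicates 1 and 2 and at 633 and 611 CPM in replicates 3 and 4. Rab22a, a GTPase of endosomes, was at 22.5, 22.6, 92.6 and 81.9 CPM in the same order. In all, 11 genes were higher in replicates 3 and 4, and some of them, such as Cyp2e1 and Hamp, are hepatocyte genes.

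Tlr4 was higher in replicates 1 and 4 by 7.32-fold, with 2244, 244, 243 and 1833 counts, and lay between 10.8 and 37.3 CPM in the 10 injured samples. Cyp26b1, which degrades retinoic acid, was at 106, 2.61, 21.2 and 113 CPM. A group of 8 genes was higher in replicates 2 and 3. Cxcr6, Il2rb, Selplg and Gzmb, genes known from lymphocytes, were among them, and the T and NK cell list was highest in the same samples (135 and 149 CPM against 49.9 and 27.6 CPM). Scamp4 was at 5.10, 62.2, 73.1 and 5.64 CPM, while the overlapping Gm49322 showed the reverse with 55.0, 2.93, 3.44 and 69.2 CPM. The division of reads between these overlapping genes was not tested.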
